A study of Arabidopsis thaliana with 2 samples.

Results

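The regions described here are the 335 PLT3 DAP peaks whose centre lay over 500 and up to 1500 bp downstream of the nearest protein-coding transcription start site (TSS), out of 1996 peaks on the nuclear chromosomes and 2036 in the whole list. They were chosen by position alone, with the TSS taken as the 5′ end of each of 27444 protein-coding genes in TAIR10.1 and the distance signed by the strand of the gene. DAP-seq mixes sheared genomic DNA with a tagged protein produced in a cell-free extract and sequences the DNA that the bead-bound protein retains. Both libraries of the study came from genomic DNA of whole roots of the Arabidopsis ecotype Col-0 at 5 days post-germination. The first was made with 3xFLAG-PLT3, and the other with 3xFLAG-EGFP, a fluorescent protein that served as the negative control in peak calling. The DNA carried no chromatin and the protein was expressed outside the plant, so the peaks describe which sequences PLT3 can hold in vitro. There was 1 library per protein, so replicate error cannot be measured here, and every test counts peaks within the PLT3 library.

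PLT proteins are AP2-type transcription factors with a pair of AP2 DNA-binding domains that together contact a long, partly degenerate site. In the root they maintain the stem cell niche, and their graded abundance sets the zones of division, elongation and differentiation. Family members also pattern lateral roots, shoot organs and the embryo. PLT3 itself acts in the root meristem, in lateral roots and in the shoot. Their sites are often looked for in promoters. The peaks treated here instead lie past the start of the transcribed region, where most of the sequence codes for protein.

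The sequence at the summits was described with a matrix of 16 positions, which was learnt by expectation maximisation on the 1661 nuclear peaks outside this set, so that no member contributed to it. Its bases of at least 50% spell CCTCGNNANNCGNGNN, and its bases of at least 80% spell TNGNNNNNNG, in which N stands for any base. Either strand was scored, and a site is a match above 8.89 bits, the score that 5% of windows beside the training peaks exceed. Such a site lay in the 100 bp at the summit of 223 of the 335 peaks, or 66.6% (95% Wilson confidence interval 61.4 to 71.4%). With matrices cross-fitted between chromosomes, a rule that scores every peak with a matrix that did not use it, the count was 210 peaks or 62.7%, against 62.1% of all nuclear peaks. The 223 sites had 221 distinct sequences. Of them, 218 had T at position 3, 220 had G at position 5 and 202 had G at position 12, counted from the 5′ end of the site. A CG dinucleotide stood at positions 4 and 5 in 138 sites and at positions 11 and 12 in 112 sites, and 67 sites held both.

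The 6 sites that follow belong to those peaks among the 10 largest fold enrichments that held a site, and show what the matches look like in strong peaks. Each is written 5′ to 3′ on the strand of the match, from the TAIR10.1 sequence of RefSeq, with the 16 bases of the site in capitals and 5 flanking bases on each side.
VLN4, chr4:14754099-14754124, plus strand: gtttgTCTGGGGAATTGTGAAattta
AT5G02340, chr5:492865-492890, minus strand: aattaCTTCGAATGTCGTGCTtgtag
AT3G21473, chr3:7566128-7566153, minus strand: taagtCTTCGGGAAGCGTGCGtcttt
EDA9, chr4:16375608-16375633, minus strand: aagggTCTTGGTATGCGTGTCattgc
FIP2, chr4:9594663-9594688, minus strand: cttccTCTTGGGATTTGTTCCctatc
AT2G10545, chr2:4091096-4091121, plus strand: gcaaaGGTTGGGAATTGCGCCaacaa
All 6 have T at position 3 and G at positions 5 and 12, as do 195 of all 223 sites, and the score that selected them weighs these bases most. The FIP2 peak was centred in the coding exon, while its summit and site lay in the 5′ UTR.

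The next 4 sequences show the best match in the other 4 of these 10 peaks, which all scored below the threshold. They are printed because strong enrichment was measured there without a site by this rule.
AT1G67870, chr1:25449797-25449822, minus strand: acatgCATGGGATGCAGCACCagggc
AT4G27380, chr4:13702215-13702240, minus strand: caagtCTCCGGTTTCCGTAGCtagtt
ABCI15, chr3:7089013-7089038, plus strand: gaattCCTCGGGATAATAATCttatc
HMG2, chr2:7550361-7550386, plus strand: caatcCCTAGATTGTCGTGAGgttct
Their scores were 7.24 bits for AT1G67870, 6.16 bits for AT4G27380, 7.52 bits for ABCI15 and 6.92 bits for HMG2. Of the 112 peaks without a site, 69 had a best score within 2 bits of the threshold. In tests on simulated windows, many of the planted sites scored below such a threshold even when the true matrix was used, so a peak without a site may still hold a weaker one. The share of 66.6% is therefore the share above the threshold, not the share of peaks that hold a PLT3 site. With a threshold that 1% of the windows beside the training peaks exceed, the share was 31.9%.

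The highest site scores belonged to other peaks. The 10 best sites scored from 15.8 to 17.8 bits, all in peaks centred in coding exons, and 3 of them are shown because they come closest to the learnt matrix.
AT4G22170, chr4:11737455-11737480, minus strand: acaaaCCTCGAAAACCGTGAAagagc
HMA4, chr2:8279630-8279655, plus strand: cgttcCCTCGAGAACCGTGATtgttg
AT4G30030, chr4:14682742-14682767, minus strand: ctaatCCTCGGAAACGGCGCCaaaat
Fold enrichment, the linear ratio of signal at the summit over the local background, was 5.88 at AT4G22170, an F-box gene. It was 4.26 at HMA4, which encodes a zinc and cadmium pump, and 4.51 at the aspartyl protease gene AT4G30030. Across these 10 best sites fold enrichment ranged from 3.67 to 8.67, and 4 of the 10 peaks were above the median of the 335. The others of the 10 were EXO70H8, which encodes an exocyst subunit, the callose synthase gene GSL1, AT2G03200, AT1G01180, the tyrosine aminotransferase gene TAT3, STN8, which encodes a thylakoid protein kinase, and AT4G34920.

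The 335 peaks had a median fold enrichment of 4.59, with quartiles of 3.94 and 5.77 and a range of 2.55 to 12.7. The median −log10 q was 4.46, with a highest value of 35.5, and the median width was 309 bp, from 157 to 1104 bp. A q-value of at most 1e-05 was reached by 146 members or 43.6% (95% Wilson confidence interval 38.4 to 48.9%), against 47.3% of all nuclear peaks. Every peak had a different nearest gene. By chromosome, 83, 44, 78, 54 and 76 peaks lay on chromosomes 1 to 5, in that order. Just inside the lower limit, the bZIP6 peak at 501 bp had a fold enrichment of 4.49, and just outside it the AT1G73950 peak at 498 bp had 5.47. Just inside the upper limit, the AT4G26880 peak at 1492 bp had 4.68, and just outside it the ALS3 peak at 1505 bp had 8.32.

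Fewer peaks were counted at greater distances within the range. The 100-bp bins held 43 peaks up to 600 bp, 44 up to 700 bp, 30 from 901 to 1000 bp and 23 from 1401 to 1500 bp. The sequence available also declined, with 6.43 Mb of the genome at 500 to 749 bp from its nearest TSS and 4.98 Mb at 1250 to 1499 bp. Per Mb of sequence at the same distance there were 17.3 peaks from 500 to 749 bp (95% Poisson interval 14.2 to 20.8), 14.3 from 750 to 999 bp (11.4 to 17.6), 12.5 from 1000 to 1249 bp (9.78 to 15.8) and 13.5 from 1250 to 1499 bp (10.4 to 17.1). These intervals overlap. Closer to the TSS, from 250 to 499 bp, the density was 29.7 peaks per Mb (25.6 to 34.1), an interval that overlaps none of the 4 before it. Between 1500 and 1749 bp it was 12.2 (9.13 to 15.9). Densities inside the range were thus below that of the 250 bp before it, and their intervals overlapped that of the 250 bp after it.

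**Figure D1:**
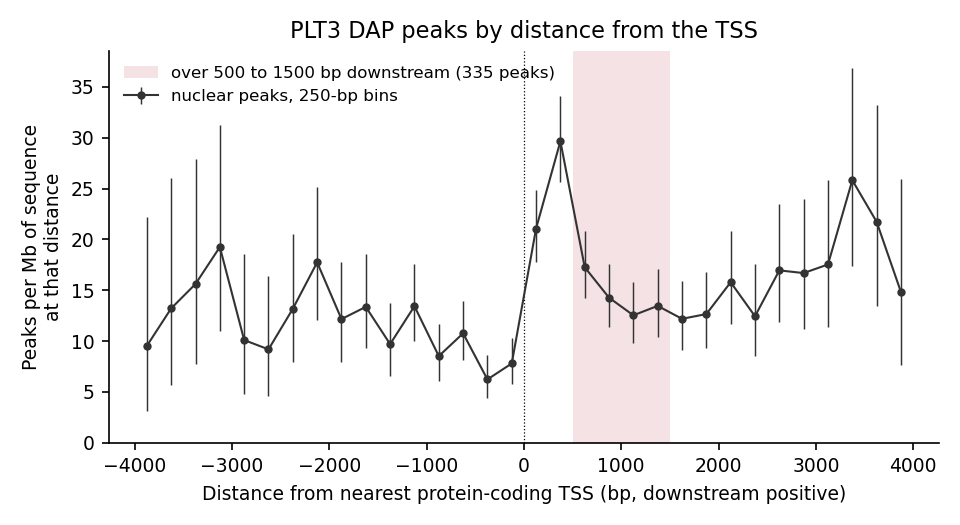
Peaks per Mb of sequence (vertical axis) by distance from the nearest protein-coding TSS (horizontal axis, bp) in 250-bp bins; points are all nuclear peaks, bars are 95% Poisson intervals and the shaded band marks the 335 peaks. The density stood at 29.7 peaks per Mb just before the band and between 12.5 and 17.3 inside it.

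Most members lay in coding sequence. The centre of 249 peaks, or 74.3% (95% Wilson confidence interval 69.4 to 78.7%), fell in a coding exon, whereas 52.3% of the bases of the genome at this distance from their nearest TSS, 23.1 Mb in all and called the zone here, are coding. Introns held 59 peaks or 17.6% (13.9 to 22.1%), against 29.4% of these bases. The 3′ UTRs held 4 peaks or 1.19%, against 6.49% of the bases, and sequence outside genes held 9 peaks or 2.69%, against 7.21%. The 5′ UTRs held 8 peaks or 2.39%, against 3.30%, and non-coding genes or pseudogenes held 6 peaks or 1.79%, against 1.25%. Expressed per Mb of each class in this zone, there were 20.6 peaks in coding exons, 8.68 in introns and 2.67 in 3′ UTRs, with 14.5 over the whole zone. Coding exons and introns were therefore on opposite sides of the average. No test was made of these shares, because the distance rule partly sets which features can be reached.

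**Figure D2:**
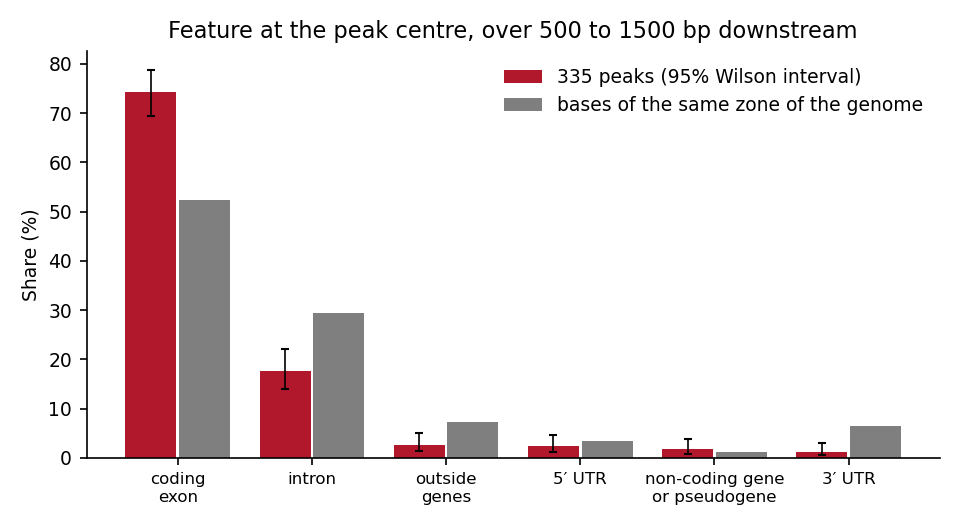
Share of peak centres by feature (red, 335 peaks, bars are 95% Wilson intervals) and share of the bases at the same distance from their nearest TSS (grey), in percent. Coding exons held 74.3% of the peaks and 52.3% of the bases, introns 17.6% and 29.4%.

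The centre lay inside the nearest gene for 312 peaks and beyond its end for 23 peaks. Inside the gene, the median position was 40.5% of the gene length from the TSS, with quartiles of 26.9 and 56.2%. Of the 242 peaks centred in a coding exon of their own gene, 82 or 33.9% (28.2 to 40.1%) lay in genes of a single exon, which hold 17.9% of the coding bases of the zone. The exon that held the peak had a median length of 1101 bp, compared with 627 bp for the coding bases of the zone. The first exon held 128 of these peaks and the last exon held 116, with single-exon genes counted in both.

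Base composition followed the same division. The 100 bp at the summit had a median GC content of 45%, with quartiles of 40.5 and 50%, compared with a median of 38% for the 230749 windows of 100 bp that tile the zone. These windows mix all features, and their GC content by feature was not computed. At the summit, the median was 47% for members in coding exons and 38% for members in introns. The other nuclear peaks had the same medians, 47% in coding exons and 38% in introns. Of the members, 188 or 56.1% lay above the median GC of the nuclear peaks centred beyond 1500 bp and up to 4 kb downstream, against 149 or 44.6% of those farther peaks. The difference was 11.5 percentage points (95% interval 3.93 to 18.9; Fisher's exact test, two-sided, adjusted p = 0.0395 over 12 comparisons). The medians themselves lay close, at 45% GC in members and 44% in the farther peaks, and peaks exactly at the median were not counted as above it. Members were centred in coding exons in 74.3% of cases and the farther peaks in 53.0%, and the part of this in the GC difference was not tested. The call was lost with GC over the whole peak, with a stricter q-value of 0.01, with all annotated genes and without peaks that share a stretch of 20 bp. It was kept with the summit in place of the centre, at 12.6 points, and with a q-value of at most 1e-05, at 23.1 points.

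In the other 11 comparisons, no difference passed the threshold with all peaks. When only peaks up to a q-value of 1e-05 were kept, further differences passed the threshold. For fold enrichment, width and GC, points here are differences in the share of peaks above the median of the comparison set. Against the other nuclear peaks they were −13.0 points for fold enrichment, −12.3 points for width and 16.8 points for GC. Against the first 500 bp it was −11.8 points in the share with a site, and against the farther peaks −14.1 points for fold enrichment. With all annotated genes, GC against the other nuclear peaks also passed, at 11.4 points. The members had a median fold enrichment of 4.59, against 4.76 for the 1661 other nuclear peaks, 4.65 for the 338 peaks 0 to 500 bp downstream and 4.71 for the farther peaks. Of the members, 46.3% exceeded the median of the other nuclear peaks, against 49.9% of those peaks, a difference of −3.64 percentage points (95% interval −9.43 to 2.22; Fisher's exact test, two-sided, adjusted p = 0.555). Their median width was 309 bp, against 323 bp in the other nuclear peaks, 302 bp in the first 500 bp and 300 bp in the farther peaks. A site was found by the cross-fitted rule in 62.7% of members and in 62.0% of the other nuclear peaks, a difference of 0.736 percentage points (95% interval −5.04 to 6.27; Fisher's exact test, adjusted p = 0.853). Against the 70.7% of peaks in the first 500 bp it was −8.02 points (95% interval −15.0 to −0.903), with a raw p of 0.0333 and an adjusted p of 0.133 in Fisher's exact test. A stretch of 20 bp found in another nuclear peak was held by 35 members or 10.4%, against 39 or 11.5% of the peaks in the first 500 bp, 69 or 20.7% of the farther peaks and 592 or 35.6% of all other nuclear peaks. These differences were not tested.

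Sites were concentrated at the summits. In the 100 bp centred 500 bp away from the summit, 14 of the 335 peaks or 4.18% (95% Wilson confidence interval 2.51 to 6.89%) had a site, against the 223 at the summit. A site stood only at the summit in 214 peaks and only in the flank in 5 (exact binomial test, two-sided, p = 9.74e-57). The best score in the window had a median of 9.97 bits at the summit and of 4.20 bits in the flank, and the summit scored higher in 309 peaks. The anchor letters TNGNNNNNNG on either strand are much less selective than the full matrix, as they occurred in 98.2% of summit windows and in 85.1% of flank windows.

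**Figure D3:**
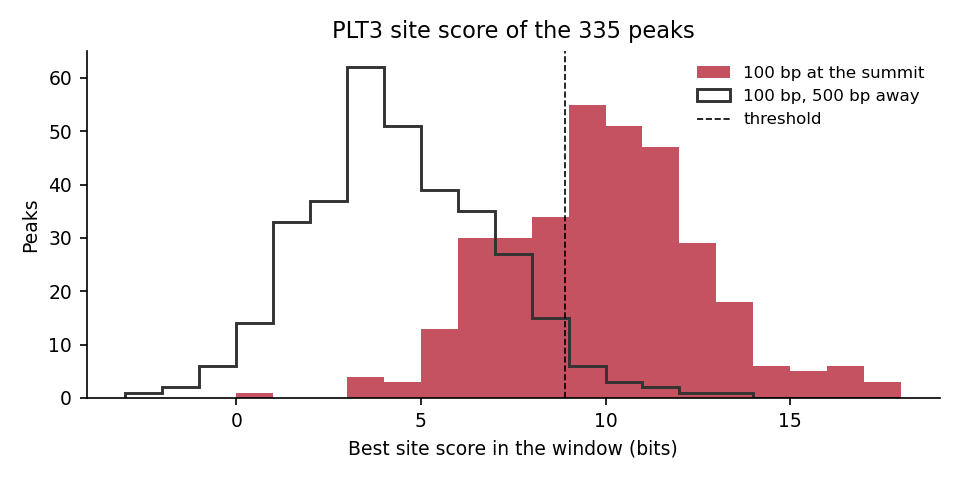
Number of peaks (vertical axis) by best site score in bits (horizontal axis) in the 100 bp at the summit (filled) and in the 100 bp centred 500 bp away (outline), for the 335 peaks; the dashed line is the threshold of 8.89 bits. The threshold was passed by 223 summit windows and 14 flank windows.

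The middle of the site lay a median of 4.5 bp from the summit, in either direction. It was within 10 bp for 180 sites or 80.7% and within 20 bp for 198 sites or 88.8%. The sites pointed either way along the gene: 112 of 223 or 50.2% (95% Wilson confidence interval 43.7 to 56.7%) were on the strand of the nearest gene (exact binomial test against equal numbers, two-sided, p = 1). In the flank windows 5 of 14 sites were on that strand, and over the zone 48.1% were.

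**Figure D4:**
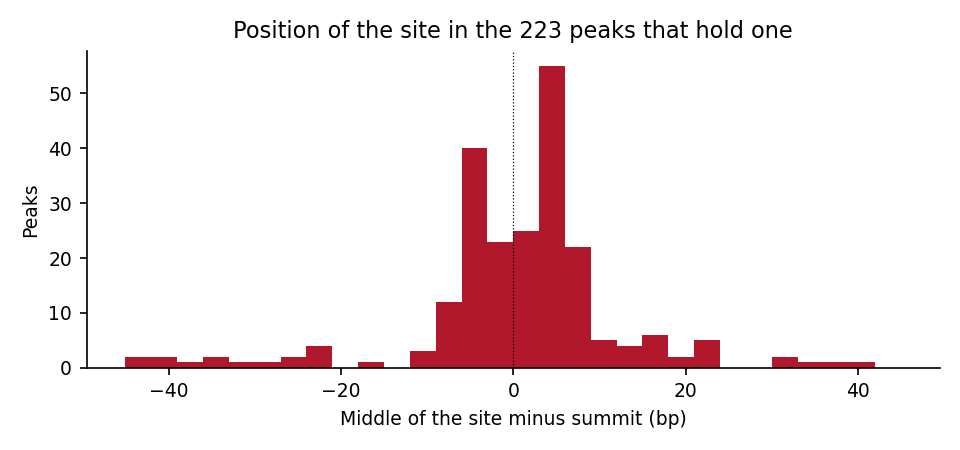
Number of peaks (vertical axis) by the distance from the summit to the middle of the site (horizontal axis, bp, in genome orientation) for the 223 peaks with a site. Within 10 bp of the summit were 180 of them.

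The 100 bp at the summit of 2 strong peaks are shown to place the site in its sequence, the first in an intron of VLN4 and the second in the second exon of EDA9. They are written on the strand of the site, which in both is the strand of the gene, with the site in capitals.
VLN4, chr4:14754058-14754157, plus strand: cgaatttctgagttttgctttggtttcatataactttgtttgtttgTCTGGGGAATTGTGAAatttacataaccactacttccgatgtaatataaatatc
EDA9, chr4:16375601-16375700, minus strand: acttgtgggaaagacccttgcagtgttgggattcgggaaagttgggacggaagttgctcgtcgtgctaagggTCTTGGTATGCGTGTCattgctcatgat
The window had a GC content of 31% at VLN4 and 51% at EDA9. The middle of the site was 3.5 bp from the summit at VLN4 and −30.5 bp from it at EDA9, counted in genome orientation.

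The position of sites within codons was uneven among members and among all matches of the zone. Of the 85 member sites that were wholly coding and on the strand of the gene, 37 or 43.5% began at the second codon position, 35 or 41.2% at the third and 13 or 15.3% at the first. The 3838 matches of the zone on that strand began at these positions in 37.9%, 43.6% and 18.4% of cases. Of the 81 wholly coding member sites on the opposite strand, 49 or 60.5% had their 3′ end, which comes first along the gene, at the first codon position, against 57.8% of 4085 matches in the zone.

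Of the 230749 windows of the zone, 10509 or 4.55% had a site, with 6.60% in coding exons, 2.29% in introns and 1.87% in 3′ UTRs. Of these sites, 391 or 3.72% lay inside a nuclear peak. The share increased with the score, from 2.30% (95% Wilson confidence interval 1.94 to 2.71%) of the sites up to 10 bits to 4.60% (3.98 to 5.32%) between 10 and 12 bits, 7.28% (5.64 to 9.36%) between 12 and 14 bits and 20.0% (14.2 to 27.4%) above 14 bits. The intervals of the lowest and the highest class do not overlap. The read depth is unknown, so for the other sites binding was not detected rather than shown to be absent.

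The median fold enrichment was 4.80 with a site and 4.41 without one. Above the median of all members were 121 of the 223 with a site, or 54.3%, and 46 of the 112 without, or 41.1% (Fisher's exact test, two-sided, p = 0.0277, a test added after the data were seen). The share with a site was 56.0% in the lowest quartile of fold enrichment, then 65.5%, 69.9% and, in the highest, 75%. Among members with a site, the median fold enrichment was 4.71 up to 10 bits and 4.80 between 10 and 12 bits. It was 4.96 between 12 and 14 bits and 4.41 in the 20 peaks above 14 bits. By feature, a site was found in 67.9% of members in coding exons and in 54.2% of members in introns.

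**Figure D5:**
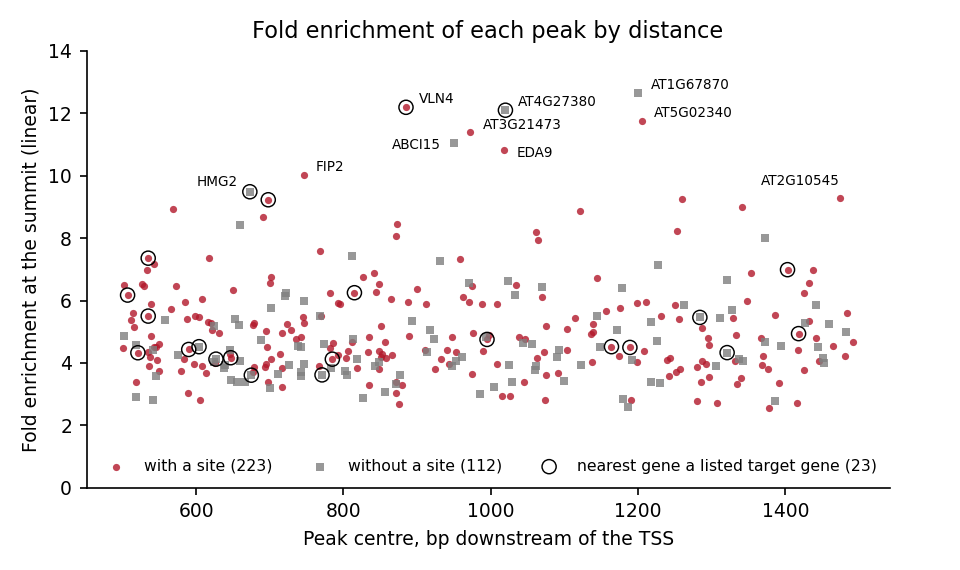
Fold enrichment at the summit (vertical axis, linear) of each of the 335 peaks by the distance of its centre from the TSS (horizontal axis, bp); red circles hold a site, grey squares hold none above the threshold and open rings mark the 23 peaks whose nearest gene is a listed target gene. The 10 peaks with the largest values, from 9.30 to 12.7, are named.

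The largest fold enrichment, 12.7, was measured at AT1G67870, which encodes a glycine-rich protein. Its peak was centred 1200 bp downstream in the second of 2 exons, over sequence with a GC content of 66%, the highest of all members. VLN4, a villin that bundles actin filaments, followed with 12.2 at 885 bp, and AT4G27380, an uncharacterised protein gene, with 12.1 at 1020 bp. AT5G02340, a C1 domain gene, had 11.8 and AT3G21473, an uncharacterised gene, had 11.4. ABCI15, also known for the transport of lipids into the plastid, had 11.1 at 950 bp. EDA9, a phosphoglycerate dehydrogenase of serine biosynthesis, had 10.8. FIP2, a FRIGIDA interacting protein gene, had 10.01, HMG2, which encodes an enzyme of the mevalonate pathway to sterols and isoprenoids, had 9.48, and AT2G10545 had 9.30. Of these 10 peaks, 8 were centred in coding exons. Ranked by −log10 q, AT5G39770, a restriction endonuclease-like gene, came first with 35.5 and a fold enrichment of 8.87, and its peak of 1104 bp was the widest member. AT3G03790, a gene with ankyrin and RCC1 repeats, also entered the first 10 by this measure with 22.0, and the other 8 were the same peaks as by fold enrichment.

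From a list of 73 auxin signalling, transport and synthesis genes, 2 had a peak here, or 0.597% of the 335, against 4 or 0.377% of the 1062 genes of other nuclear peaks within 4 kb and 0.266% of all protein-coding genes. PIN3, an auxin efflux carrier, had a fold enrichment of 4.64 at 786 bp in a coding exon, with a site. IAA15, of the Aux/IAA repressors, had 3.60 at 805 bp in an intron, without one. The list goes by gene symbol and does not take in AT4G17350 and AT5G47440, members annotated as auxin canalization proteins. None of 54 cytokinin genes, 0.197% of all protein-coding genes, was a member, and none was the nearest gene of another nuclear peak within 4 kb. No PLT gene was the nearest gene of a member.

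Among 74 meristem regulators listed by gene symbol, 0.270% of all protein-coding genes, 2 or 0.597% of the members were found, against 0.188% of the genes of other nuclear peaks. This list does not take in BAM1 and BAM2, members described below. The receptor kinase gene ERL1 had a fold enrichment of 5.28 at 679 bp and the homeobox gene KNAT2 had 3.60 at 1075 bp. Both peaks were centred in introns and both held a site. From 157 genes of the cell cycle and DNA replication, 0.572% of all protein-coding genes, 2 or 0.597% of the members were found, against 0.188% of the genes of other nuclear peaks. They were AT5G02420, an SMR3-like inhibitor of cyclin-dependent kinases, with 5.26, and AT2G28870, an SMR1-like one, with 2.94. The centre of both lay beyond the end of the gene, at 1459 and 1026 bp, so the bound sequence lay outside the gene it is named for.

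The cytoskeleton list of 228 genes gave 6 members, with fold enrichments of 3.39 to 12.2, and 3 of them held a site. VLN4 was first, followed by the actin gene ACT9 with 8.20 at 1062 bp in a coding exon. AT3G30230, annotated as myosin heavy chain-like, had 6.66, and the myosin gene ATM2 had 5.50. The ATM2 peak was centred in an intron at 535 bp, while its site lay in a UTR. The chromatin list of 460 genes, which takes in every product named a methyltransferase, gave 3 members, AT4G17610 with 7.94, AT2G39750 with 5.26 and AT1G01180 with 3.96. All 3 are annotated as methyltransferases of RNA or of unstated substrates, and all held a site. By count, members amounted to 1.79% for the cytoskeleton, compared with 0.831% of all protein-coding genes, and to 0.896% for chromatin, compared with 1.68%. The cytoskeleton count includes AT3G30230, AT3G42060 and AT1G10020, which are annotated only as myosin heavy chain-like or formin-like proteins. None of these held a site. Among the genes of other nuclear peaks within 4 kb the shares were 1.22% for the cytoskeleton and 1.98% for chromatin.

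Counted by product words, the largest family was the kinases, with 27 members or 8.06% of the 335, compared with 5.06% of all protein-coding genes. The word also takes in kinase inhibitors, such as both SMR-like genes. Of these 27 peaks, 23 were centred in coding exons and 17 held a site, and fold enrichment ran from 2.72 to 8.43. Transcription factors had 13 members or 3.88%, compared with 5.04% of all genes, led by MEE3 with 6.99, AT5G62260 with 6.57, WRKY22 with 6.16 and MYB76 with 6.05. The MEE3 peak was centred outside genes, at 1403 bp. Repeat proteins of the pentatricopeptide and tetratricopeptide type had 14 members or 4.18%, compared with 2.06% of all genes, and 13 of these peaks were in coding exons. Transporters had 11 members or 3.28%, compared with 2.46% of all genes, and F-box proteins had 10 or 2.99%, compared with 2.38%. Glycosyltransferases or hydrolases had 7 or 2.09%, compared with 1.29%, and cytochromes P450 had 5 or 1.49%, compared with 0.904%. Disease resistance proteins had 2 or 0.597%, compared with 0.707%. Among the genes of other nuclear peaks within 4 kb, the shares were 6.03% for kinases, 4.90% for transcription factors and 2.07% for the repeat proteins. They were 2.35% for transporters, 1.41% for F-box proteins and 1.69% for glycosyltransferases or hydrolases. Cytochromes P450 had 0.471% there and disease resistance proteins 1.32%. The family counts describe the members and were not tested.

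Aspartyl proteases were chosen after their values were seen, as 6 of 70 such genes were members, or 1.79% of the 335 compared with 0.255% of all protein-coding genes. Among the genes of other nuclear peaks within 4 kb the share was 0.282%. All 6 peaks were centred in coding exons between 696 and 1378 bp, and all held a site. Their fold enrichments were 8.24 at ASPG1, 4.57 at AT3G20015, 4.51 at AT4G30030, 3.67 at AT2G03200, 3.40 at AT1G01300 and 2.55 at AT5G10760. The sites are shown to compare them within a family, that of AT4G30030 being printed above.
ASPG1, chr3:6349486-6349511, plus strand: atcgaCATCGAAGATCGCATCaggca
AT3G20015, chr3:6979273-6979298, minus strand: cggttCATTGGTATTCGGGCGggaag
AT2G03200, chr2:966842-966867, plus strand: ggtctCCTCGAGATACGTGATggtcg
AT1G01300, chr1:117992-118017, minus strand: gtgaaTCTCGCGATTCGTGATacggc
AT5G10760, chr5:3400922-3400947, minus strand: gagtaCGTCGGGATACGGGCTttttg
Only 3 of the 16 positions, the third, the fifth and the twelfth, had the same base in all 6 sites. The score that selected the sites weighs these positions most, and 195 of all 223 member sites carry the same bases there. The 6 sites were on the strand of the gene in 3 members and on the opposite strand in the other 3.

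Some members resembled each other in sequence. By blastn at an e-value of 1e-06, 23 pairs of members shared sequence, which involved 31 of the 335 peaks, and 15 pairs had a site in both peaks. In 4 pairs the sites were at the same aligned position. The first is BAM1 and BAM2, which encode related receptor kinases of the CLAVATA1 family that perceive CLE peptides, and which were chosen after their values were seen. Both peaks lay in the first exon, at 539 and 621 bp, and their fold enrichments were 5.90 and 5.07. The stretch that holds both sites is printed with 20 flanking bases on each side.
BAM1, chr5:26282196-26282251, minus strand: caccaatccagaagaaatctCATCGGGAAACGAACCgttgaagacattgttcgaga
BAM2, chr3:18418111-18418166, minus strand: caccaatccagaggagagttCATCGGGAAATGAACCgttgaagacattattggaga
The 56 bases differed at 7 positions, of which 1 was inside the site, C31T, with BAM1 first and positions counted from the first base printed. The site scored 15.3 bits in BAM1 and 13.3 bits in BAM2.

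The other 3 of these pairs joined AT2G14395, AT3G43150 and AT4G06583, uncharacterised genes whose peaks were 87.4 to 93.8% identical over aligned stretches of 275 to 409 bp. Their fold enrichments were 5.25, 7.16 and 6.97. Among all members, RHA1A resembled the largest number of nuclear peaks, 126, with a peak outside genes 1231 bp downstream and a fold enrichment of 5.51. AT5G28442 followed with 25 similar peaks. Reads of low mapping quality were removed by the authors, and how this affected peaks in repeated sequence was not tested.

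The nearest genes included 23 of the target genes listed by the study, or 6.87% of the 335. Among the 1062 genes of other nuclear peaks within 4 kb, 96 or 9.04% were target genes. Of the 197 core genes, 11 were among the nearest genes, or 3.28%, against 51 or 4.80% of these 1062. A gene with both a member and another such peak was counted on both sides. Both lists were built partly on these peaks, so the counts are a description. The 23 peaks had fold enrichments of 3.61 to 12.2 with a median of 4.75, 15 of them held a site and 10 had a q-value of at most 1e-05. The strongest were VLN4, AT4G27380 and HMG2, all 3 also core genes. They were followed by AT3G03790 with 9.23, by SLY2, an F-box gene of gibberellin signalling, with 7.36, and by the homeodomain-like gene MEE3 with 6.99. AT1G68710, an ATPase gene, had 6.25, the Tudor domain gene AT1G15940 had 6.17, ATM2 had 5.50, and WAVH1, a RING finger gene, had 5.46. AT1G47480, a hydrolase gene, had 4.94 and AT5G40320, a C1 domain gene, had 4.75.

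A further nuclear peak was assigned to 28 of the 335 genes. It lay in the first 500 bp for 5 genes, beyond 1500 bp and up to 4 kb downstream for 8, up to 4 kb upstream for 14 and beyond 4 kb on either side for 10, with 6 genes counted in more than 1 of these classes. For the other genes the member was the only peak assigned.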

How the data were processed

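DAP-seq peaks of 1 3xFLAG-PLT3 library were analysed, with 3xFLAG-EGFP as the control in peak calling. Per the submitters' processing notes and the study's methods, the authors used fastp 0.23.2 for trimming, BWA-MEM 0.7.17 for alignment to TAIR10, SAMtools 1.15 and Sambamba 0.6.6 to discard duplicates and alignments of mapping quality below 30, and MACS3 3.0.0a7 for peaks with a q-value threshold of 0.05. The deposited list gives fold enrichment as a linear ratio, −log10 p and −log10 q-values and the summit. The authors' whole-number score was not used. Depth is unknown, since no read counts are listed, and intervals cover counting error only.

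Genes and sequence came from RefSeq TAIR10.1. Shares have 95% Wilson intervals. Peak counts were compared by Fisher's exact test with Benjamini-Hochberg adjustment over 12 comparisons, or by exact binomial tests, all two-sided. Peaks with shared sequence are not independent units. Alternatives changed the q-value, the position of the peak, the genes, the window, the site threshold and the flank. Named genes were the first 10 by fold enrichment, −log10 q and site score, the first 12 target genes, and up to 4 per list. Members and lists were chosen with earlier results of these data known. Python 3.11.15, numpy 2.4.6, pandas 2.3.3, scipy 1.17.1, matplotlib 3.10.9 and BLAST+ 2.17.0 were used, and the methods were tested on simulated data, where planted sites about as weak as the learnt matrix were often missed, also by the true matrix.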

Additional observations from a re-analysis of the deposited data

How the results depend on the processing

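Of 107 recomputed values, 94 stayed on the same side of the test's threshold or, for counts and shares, near the main value, and no called difference turned its direction. The excess of members above the median GC of peaks beyond 1500 bp and up to 4 kb downstream, 11.5 percentage points, lost its call at a q-value of 0.01 (10.9 points), with all annotated genes (3.86), without peaks that share 20 bp with another (8.63) and with GC over the whole peak (9.70). It kept its call at a q-value of at most 1e-05 (23.1) and with the summit in place of the centre (12.6). At a q-value of at most 1e-05 there were 146 members with 10 target genes. Fisher's exact test then called differences in the share above the other nuclear peaks' median fold enrichment (−13.0 points), width (−12.3) and GC (16.8). It also called the share with a site against the first 500 bp (−11.8) and the share above the farther peaks' median fold enrichment (−14.1). With all annotated genes there were 466 members, and the share in coding exons was 51.9%. The difference from the other nuclear peaks in the share above the median GC was then 11.4 points and passed the test. The cause of these changes was not tested. The excess of sites at the summit over the flank passed the test in the 9 alternatives run. Over these, the share of members with a site ranged from 31.9 to 74.0%, lowest with the threshold that passes 1% of flanks. The share of sites on the strand of the gene ranged from 43.9 to 51.3% over 8 alternatives. No paired analysis was possible because there was 1 library per protein, and no replicate could be left out.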
